A study of Rattus norvegicus with 18 samples.

Results

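The proteasome genes described here are the 36 rows of the deposited expression table whose symbol is Psma, Psmb, Psmc or Psmd followed by a number, leaving out the immunoproteasome genes Psmb8, Psmb9 and Psmb10, and whose FPKM averaged at least 1 over the 6 groups. They are 36 of 17312 genes in the table and of 10545 genes that reach that mean. Of the 39 rows that match the symbol pattern, all 36 other than the immunoproteasome genes reached it, so the minimum removed no row. The lowest averages were those of Psma8 (1.20 FPKM) and Psmb11 (1.58 FPKM). FPKM counts sequenced fragments relative to transcript length and to the mapped fragments of a library, so it is a level per length.

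The cells were neonatal rat ventricular myocytes, heart muscle cells in primary culture from Sprague-Dawley rat pups on day 2 of life. They were plated with 10% serum and then kept without serum in a medium with ITS, a supplement of insulin, transferrin and selenium. SR9009, a synthetic agonist of the repressive nuclear receptors REV-ERB alpha and beta, or its vehicle was given for 24 h, and phenylephrine (PE), an agonist of alpha-1 adrenergic receptors that makes cardiomyocytes hypertrophic, followed for 0, 4 or 48 h. The 6 groups were SR9009 at 0 h, SR9009 with PE for 4 h, SR9009 with PE for 48 h, vehicle at 0 h, vehicle with PE for 4 h and vehicle with PE for 48 h, each with 3 libraries. All groups shared the serum withdrawal, and there was no culture without PE at 4 or 48 h, so PE and time in culture cannot be told apart. The dose of either agent is not given in the sources used here.

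The 26S proteasome is the large protease of the cytosol and nucleus that degrades proteins tagged with ubiquitin. Its barrel-shaped 20S core is built of outer alpha rings (Psma genes), which gate the entry, and inner beta rings (Psmb genes), which hold the proteolytic sites, and its 19S cap has a base with a ring of ATPases (Psmc genes) that unfold and thread substrates and a lid (Psmd genes) that removes the ubiquitin. Subunits are needed in fixed proportions, and in mammalian cells their genes are known to be induced together by the transcription factor NRF1 (Nfe2l1). In heart muscle the proteasome degrades sarcomere and signalling proteins, and its activity is known to change in hypertrophy. The symbol rule also takes in genes that are not general subunits of the 26S particle. Psmd5, Psmd9 and Psmd10 encode chaperones that assemble the base, and Psma8 and Psmb11 are known in mammals as the testis and the thymus form of a core subunit.

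The stretches upstream of the annotated start are shown for 7 of the proteasome genes described below, the catalytic subunits and 4 genes of the cap, to let the letters be read beside the expression values. The 4 cap genes were chosen by those values. They are the Psmc and Psmd genes with a promoter entry and the largest difference between PE for 48 h and 0 h with vehicle. Among the 7 genes Psmb5 and Psmd11 had no called difference, while Psmd12 and Psmd14, with the widest differences, are not shown. Of the 36 genes, 31 had an entry in the RefSeq promoter table (assembly GRCr8), and Psma7, Psmb11, Psmd12, Psmd14 and Psmd6 are named only. Each line gives the 250 bases before the start in the direction of transcription, 5′ to 3′, with capitals for any match on either strand to 1 of 4 motifs. The motifs were TGACNNNGC, the core of the antioxidant response element that NRF1 and NRF2 are known to bind, CCAAT, the CCAAT box, CGGAAG, the core of sites of ETS family factors, and AGGTCA, the nuclear receptor half-site that is part of known REV-ERB sites. The first 3 are the catalytic subunits of the core, Psmb5 at chr15:32047380-32047629 on the minus strand, Psmb6 at chr10:55737638-55737887 on the plus strand and Psmb7 at chr3:42827471-42827720 on the minus strand.
Psmb5: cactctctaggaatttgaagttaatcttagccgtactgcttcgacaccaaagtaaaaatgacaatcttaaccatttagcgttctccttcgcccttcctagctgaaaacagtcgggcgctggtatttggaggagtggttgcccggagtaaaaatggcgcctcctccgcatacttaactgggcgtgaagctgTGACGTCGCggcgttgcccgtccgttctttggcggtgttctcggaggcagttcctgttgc
Psmb6: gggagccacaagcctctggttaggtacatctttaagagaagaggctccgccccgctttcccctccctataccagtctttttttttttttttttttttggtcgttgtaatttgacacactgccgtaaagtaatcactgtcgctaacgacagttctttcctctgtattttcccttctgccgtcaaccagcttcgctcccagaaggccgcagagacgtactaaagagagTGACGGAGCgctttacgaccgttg
Psmb7: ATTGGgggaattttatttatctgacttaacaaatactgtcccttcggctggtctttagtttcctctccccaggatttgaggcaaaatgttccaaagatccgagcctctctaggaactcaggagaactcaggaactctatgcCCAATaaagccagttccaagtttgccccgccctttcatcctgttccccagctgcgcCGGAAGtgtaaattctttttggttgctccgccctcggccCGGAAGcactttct
Psmb5 and Psmb6 each hold 1 match to TGACNNNGC, and Psmb7 holds CCAAT and CGGAAG matches in its place.

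The next 4 are genes of the cap: Psmd8 at chr1:93608690-93608939 (minus strand) and Psmd11 at chr10:65932093-65932342 (plus strand) of the lid, and Psmc1 at chr6:125122247-125122496 (plus strand) and Psmd1 at chr9:94157721-94157970 (plus strand) of the base.
Psmd8: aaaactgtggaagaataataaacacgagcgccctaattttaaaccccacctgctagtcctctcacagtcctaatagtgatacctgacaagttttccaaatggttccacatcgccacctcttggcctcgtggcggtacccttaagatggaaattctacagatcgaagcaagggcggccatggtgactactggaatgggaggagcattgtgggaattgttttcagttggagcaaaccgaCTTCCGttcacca
Psmd11: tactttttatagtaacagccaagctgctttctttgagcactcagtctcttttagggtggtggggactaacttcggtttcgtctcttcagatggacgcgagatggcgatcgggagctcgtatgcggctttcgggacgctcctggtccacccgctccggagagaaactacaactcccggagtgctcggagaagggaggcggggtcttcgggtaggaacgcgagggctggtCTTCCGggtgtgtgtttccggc
Psmc1: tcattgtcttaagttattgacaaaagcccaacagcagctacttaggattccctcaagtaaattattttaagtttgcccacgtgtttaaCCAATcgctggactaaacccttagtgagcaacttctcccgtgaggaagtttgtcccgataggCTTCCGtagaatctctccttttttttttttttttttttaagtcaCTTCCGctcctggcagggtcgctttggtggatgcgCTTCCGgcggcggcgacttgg
Psmd1: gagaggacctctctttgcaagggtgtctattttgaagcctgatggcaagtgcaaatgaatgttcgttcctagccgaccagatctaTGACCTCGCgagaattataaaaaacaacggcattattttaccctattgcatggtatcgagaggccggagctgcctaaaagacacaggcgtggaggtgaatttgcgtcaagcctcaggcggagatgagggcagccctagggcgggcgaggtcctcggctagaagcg
In Psmd8 and Psmd11 the single match is CGGAAG on the opposite strand, read as CTTCCG, and in Psmd1 the TGACNNNGC and AGGTCA matches overlap. Over the 31 proteasome promoters CGGAAG was found in 16 (51.6%), against 13.9% of 33469 promoters of the same length in the table. CCAAT was also found in 16 (51.6%), against 34% of all promoters. TGACNNNGC was found in 6 (19.4%), those of Psma3, Psmb2, Psmb5, Psmb6, Psmd1 and Psmd9, against 10.1% of all promoters. AGGTCA was found in 4 (12.9%), those of Psma2, Psmd1, Psmd10 and Psmd9, against 14.1% of all promoters. These counts describe letters in the window and were not tested, and neighbouring genes can share a promoter. The 33469 promoters are all entries, not only those of genes that average at least 1 FPKM here. The shares therefore do not set the proteasome genes apart from other genes expressed in these cells.

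The deposited table holds a single FPKM per gene and group, which the authors made from the 3 libraries of that group, and confidence bounds below and above it. The spread between libraries is therefore seen only through those bounds, no difference could be tested, and nothing shows whether the 3 libraries of a group were separate cultures. Differences are given as log2(FPKM + 1) of the first group minus the second, which understates differences of the lowest genes, and the range after a difference is the widest that the bounds permit. Genes whose bounds in the 2 groups do not overlap are called higher or lower, and 2-fold where the difference is also at least 1. For the proteasome genes the half-width of the bounds had a median of 14.7% of the value, from 12.4% (Psmd7) to 38.9% (Psma8). The FPKM of all genes summed to 612421, 670517 and 656724 at 0, 4 and 48 h with SR9009 and to 609018, 699056 and 710198 with vehicle, so results are also given with the sums made equal. Depth is unknown, and because the samples are bulk cultures, fewer cells of a type and less RNA per cell cannot be told apart.

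Markers show cultures of heart muscle cells with other cells present. Of 10 cardiomyocyte markers 9 were in the table, with Myh6 lacking an estimate in some groups. The other 8 summed to 10120, 20892 and 23132 FPKM at 0, 4 and 48 h with SR9009 and to 14621, 30952 and 32529 FPKM with vehicle. The 9 fibroblast markers summed to between 936 and 2083 FPKM, with Col1a2 listed at 0 in every group, and the 5 smooth muscle markers to between 818 and 1915 FPKM. The 5 endothelial markers summed to at most 13.4 FPKM. The 6 macrophage markers summed to 10.4, 10.5 and 16.0 FPKM at 0, 4 and 48 h with SR9009, against 38.4, 39.4 and 16.8 FPKM with vehicle. Single genes carried some of these sums. In vehicle with PE for 48 h the highest cardiomyocyte marker alone had 21530 FPKM, while the median of the 8 was 2354 FPKM with SR9009 at 48 h and 1254 FPKM with vehicle at 48 h, the lowest of all groups. Against 0 h, 7 of the 8 were higher and 0 lower at 48 h with SR9009, against 9.49% and 9.56% of all genes used. With vehicle 3 were higher and 4 lower, against 17.1% and 14.7%. Of 8 fibroblast markers with values, 4 were lower at 48 h than at 0 h with SR9009 (median -0.33). With vehicle 6 were lower, all 6 of them at 2-fold (median -1.29), against 3.96% of all genes used. At 48 h 4 of the 6 macrophage markers were lower with SR9009 than with vehicle and 1 was higher. Over all genes used these shares were 17.3% and 11.3%. The median difference of the 6 was -0.79, and the 1 higher marker made up 9.77 FPKM of the sum with SR9009. Before PE 7 of the 8 cardiomyocyte markers and all 6 macrophage markers were lower with SR9009, against 5.9% of all genes used. The part of these marker levels in the results was not tested.

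The proteasome genes differed widely in level, from a mean of 1.20 FPKM (Psma8) to 315 FPKM (Psmb1), but each ranged narrowly over the groups. Summed over the 36 genes, FPKM was 3668, 5133 and 3921 at 0, 4 and 48 h with SR9009, and 3606, 4653 and 4705 with vehicle. As a share of the FPKM of all genes this was 0.599%, 0.766% and 0.597% with SR9009, against 0.592%, 0.666% and 0.663% with vehicle. The sum was thus highest at 4 h in the SR9009 arm, while in the vehicle arm 4 and 48 h were nearly alike. No single gene ranged widely: the highest of its 6 group values was between 1.31 (Psmd9) and 1.99 times (Psmd12) the lowest, with a median of 1.48 times.

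**Figure D1:**
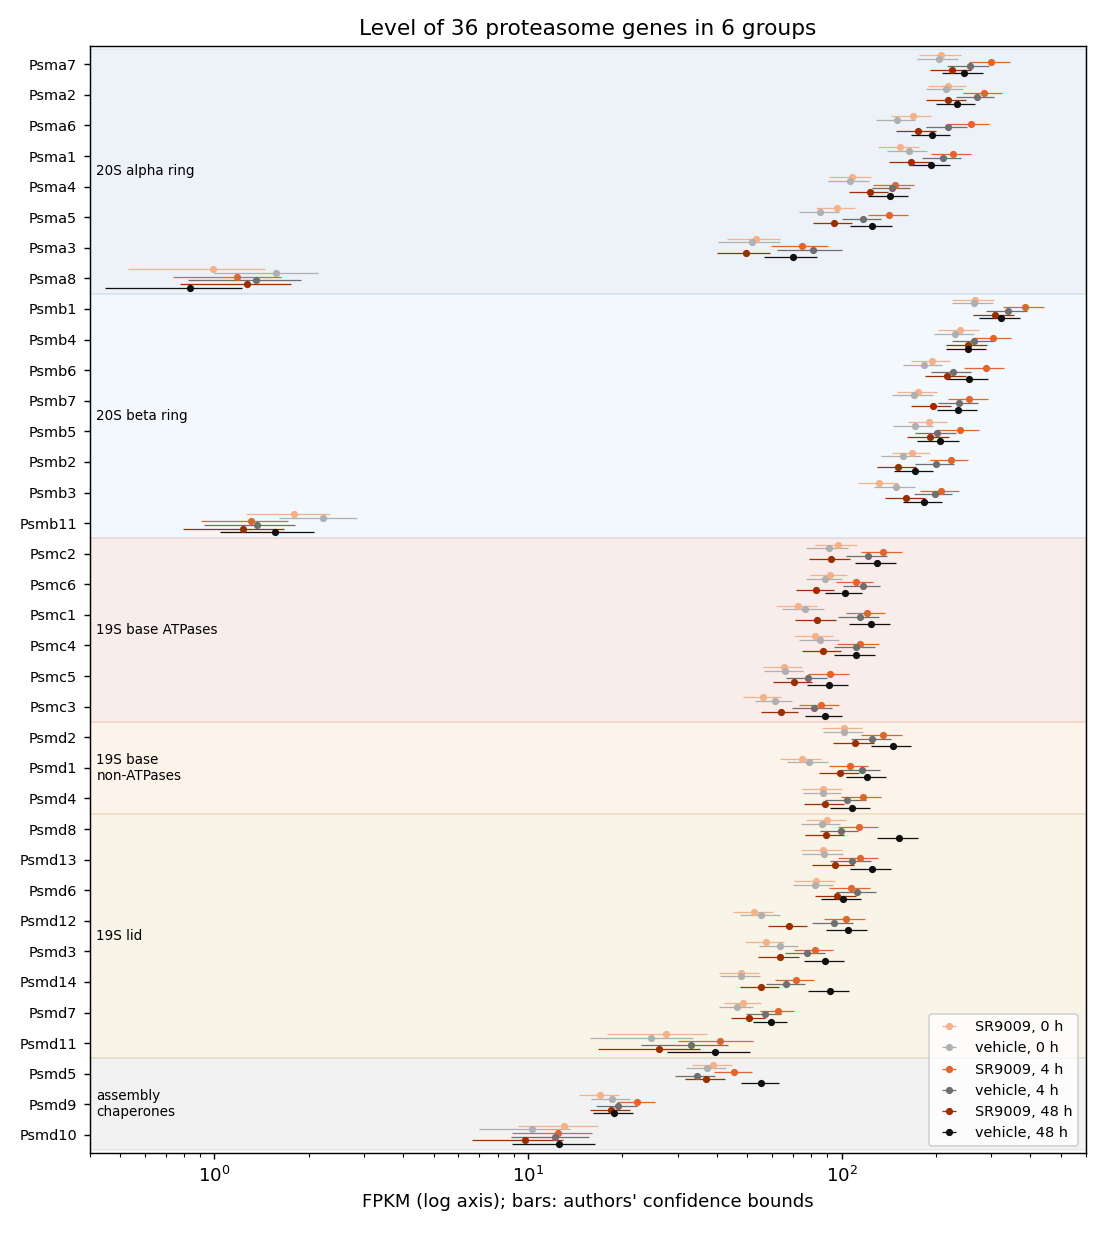
FPKM (log axis) of the 36 proteasome genes in the 6 groups, ordered by sub-complex, with bars for the authors' confidence bounds. The median of the general core subunits lies above that of the cap in every group, Psma8 and Psmb11 average 1.20 and 1.58 FPKM, and within a gene the highest group is at most 1.99 times the lowest.

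The median core subunit stood above the median cap subunit in FPKM. The median FPKM of the general core subunits was 172, 247 and 183 at 0, 4 and 48 h with SR9009, and 167, 214 and 200 with vehicle. For the 17 genes of the cap the median FPKM was 74.7, 107 and 83.4 with SR9009, and 78.9, 104 and 105 with vehicle. The ratio of these medians was 2.30, 2.30 and 2.19 with SR9009, against 2.12, 2.06 and 1.90 with vehicle, so it was lowest in vehicle with PE for 48 h. The highest level of any member was that of Psmb1, a non-catalytic beta subunit, with 266, 385 and 309 FPKM at 0, 4 and 48 h with SR9009 and 265, 339 and 322 FPKM with vehicle. In the alpha ring the highest was Psma7, with 208, 300 and 225 FPKM with SR9009 and 205, 256 and 246 FPKM with vehicle. Psma7 and Psma2, the next in the ring, averaged 240.1 and 240.0 FPKM and did not differ beyond their bounds.

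The catalytic subunits moved over the groups by less than the bounds in several contrasts. Psmb5, which carries the chymotrypsin-like site, had 190, 238 and 191 FPKM at 0, 4 and 48 h with SR9009, and 171, 202 and 206 FPKM with vehicle. Its bounds overlapped in each of the 11 comparisons made. Psmb6, with the caspase-like site, had 194, 288 and 217 FPKM with SR9009, and 183, 226 and 256 FPKM with vehicle. It was higher after PE for 4 h than at 0 h with SR9009, by 0.57 (0.15 to 0.98), and after PE for 48 h than at 0 h with vehicle, by 0.48 (0.06 to 0.90). Psmb7, with the trypsin-like site, had 175, 255 and 195 FPKM with SR9009, and 170, 237 and 236 FPKM with vehicle. It was higher after 4 h than at 0 h in both arms, by 0.54 (0.12 to 0.96) with SR9009 and by 0.47 (0.05 to 0.90) with vehicle.

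Tissue-restricted forms were at the floor of the set. Psma8 had 0.991, 1.18 and 1.27 FPKM at 0, 4 and 48 h with SR9009, and 1.57, 1.35 and 0.836 FPKM with vehicle. Psmb11 had 1.80, 1.31 and 1.23 FPKM with SR9009, and 2.22, 1.37 and 1.56 FPKM with vehicle. Both had their highest value in vehicle at 0 h, unlike the general subunits, and their bounds overlapped in each comparison. Psmb11 lies 3.78 kb from Psmb5 on chromosome 15, and no read of either can be followed in a table of this kind.

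Of the chaperones, Psmd5, which holds ATPases of the base during assembly, had 39.0, 45.5 and 37.0 FPKM at 0, 4 and 48 h with SR9009, and 37.3, 34.5 and 55.5 FPKM with vehicle. Psmd10, known as gankyrin, had 13.0, 12.5 and 9.79 FPKM with SR9009, and 10.3, 12.2 and 12.6 FPKM with vehicle. Psmd9 had 17.0, 22.3 and 18.5 FPKM with SR9009, and 18.5, 19.4 and 18.8 FPKM with vehicle. Psmd5 alone of these 3 had groups with bounds apart, as given below.

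The first comparison asks how the myocytes responded to PE for 4 h without SR9009. Proteasome genes were mostly higher, by little. In vehicle-treated cells 33 of the 36 genes were above their 0 h value, with a median difference of 0.35, against -0.02 over all 10418 genes used. With bounds apart, 11 genes (30.6%) were higher, against 14% of all genes used, and 0 were lower, also against 14%. None reached 2-fold, which 2.75% of all genes used did upward and 2.32% downward. The 11 were Psma4, Psma5 and Psma6 of the alpha ring, the catalytic Psmb7, the ATPases Psmc1, Psmc3 and Psmc6, Psmd1, a scaffold of the base, and Psmd6, Psmd12 and Psmd14 of the lid.

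The widest of these differences was that of Psmd12, a scaffold subunit of the lid (chromosome 10, 95706808 to 95725452, rn6). Psmd12 had 52.8 (45.2 to 60.3), 103 (88.1 to 119) and 68.1 (58.4 to 77.8) FPKM at 0, 4 and 48 h with SR9009, and 55.5 (47.5 to 63.4), 94.7 (80.6 to 109) and 105 (89.4 to 121) FPKM with vehicle. Its 4 h difference with vehicle was 0.76 (0.34 to 1.18). Psmc1, an ATPase of the base (chromosome 6, 124123283 to 124135643), had 72.9, 121 and 83.4 FPKM with SR9009, and 76.3, 115 and 124 FPKM with vehicle. It differed by 0.58 (0.15 to 1.02) at 4 h with vehicle. These counts depend on the scaling of the groups. With the FPKM sums made equal, 1 gene was higher, Psmd12, and 1 lower, Psmb11, and with quantile normalization 1 was higher, again Psmd12. The median difference of the proteasome genes was then 0.16 with equal sums and 0.13 with quantile normalization, against -0.20 and -0.00 over all genes used.

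The same step with SR9009 asks whether the 4 h response was altered by the agonist. With SR9009, 34 of the 36 genes were above their 0 h value at 4 h, with a median difference of 0.47 against -0.06 over all genes used. With bounds apart, 19 genes (52.8%) were higher, against 11.5% of all genes used, and 0 lower, against 16%. At 2-fold 0 were called, against 1.83% upward and 2.65% downward. Psmd12 had the widest difference, 0.96 (0.54 to 1.37), followed by Psmc1 with 0.72 (0.29 to 1.14) and Psmb3, a beta subunit, with 0.65 (0.24 to 1.06). By role, the 19 were 5 general alpha subunits (Psma1, Psma4, Psma5, Psma6 and Psma7), 5 general beta subunits (Psmb1, Psmb2, Psmb3, Psmb6 and Psmb7), 5 ATPases (Psmc1 to Psmc5), Psmd1, and Psmd3, Psmd12 and Psmd14 of the lid. Of the bounds that overlapped, those of Psmd11 were wide: it had 41.1 (30.2 to 52.1) FPKM at 4 h, against 27.5 (17.9 to 37.1) FPKM at 0 h. With equal sums 8 genes were higher, and with quantile normalization 9.

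The difference between the arms in this step was small. The 4 h difference was larger with SR9009 than with vehicle for 31 of the 36 genes, and the median of the difference between arms was 0.13, against -0.05 over all genes used. With bounds apart 0 genes were called, against 0.125% of all genes used upward and 0.731% downward, and at 2-fold 0, against 0.077% upward and 0.346% downward. Set directly beside vehicle at PE 4 h, SR9009 gave a median difference of 0.11, with 30 of 36 genes above 0, against -0.06 over all genes used, and 0 genes had bounds apart, against 4.1% upward and 10.4% downward. At 2-fold 0 were called, against 0.499% upward and 1.05% downward. The median was 0.17 with equal sums and 0.18 with quantile normalization. Psmb6 had 288 (246 to 330) FPKM with SR9009 at 4 h, against 226 (193 to 259) FPKM with vehicle. Psmd5 had 45.5 (39.2 to 51.8) FPKM with SR9009, against 34.5 (29.4 to 39.6) FPKM with vehicle, so that its bounds overlapped by a narrow margin. Psmd5 was called higher with SR9009 once the sums were made equal, under quantile normalization and with the median of all genes centred.

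**Figure D2:**
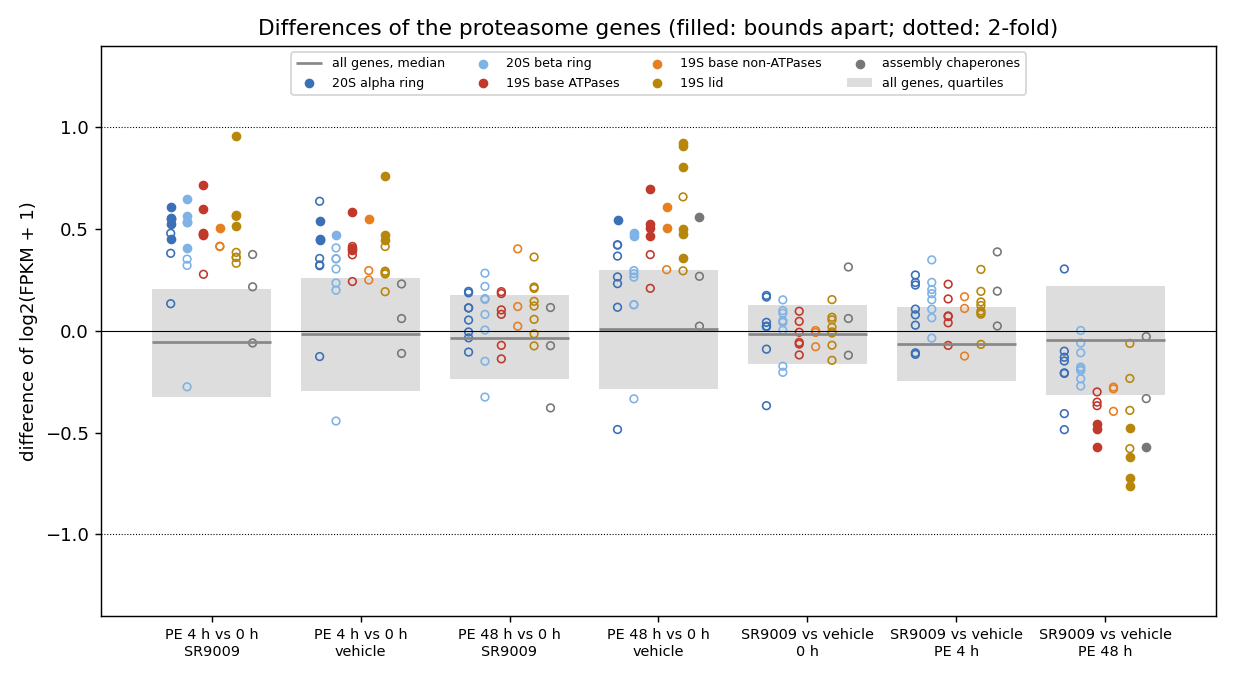
Difference of log2(FPKM + 1) of each proteasome gene in 7 comparisons, by sub-complex, with filled points where bounds do not overlap, grey boxes for the quartiles and grey lines for the median of all genes used, and dotted lines at 2-fold. In PE 4 h vs 0 h 19 points are filled with SR9009 and 11 with vehicle, in PE 48 h vs 0 h 0 with SR9009 and 16 with vehicle, and none reaches a dotted line.

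The 48 h response was set out in each arm in the same way, and the difference between the arms, for which 0 genes were called, is given further down. In vehicle-treated cells 34 of 36 genes were above their 0 h value, with a median difference of 0.40 against 0.01 over all genes used. With bounds apart 16 genes (44.4%) were higher, against 17.1% of all genes used, and 0 were lower, against 14.7%. At 2-fold 0 were called, against 4.87% upward and 3.96% downward. With SR9009, 25 of 36 genes were above their 0 h value, with a median difference of 0.11 against -0.03 over all genes used. With bounds apart 0 were called there, against 9.49% of all genes used upward and 9.56% downward, and at 2-fold also 0, against 1.26% upward and 1.16% downward. With equal sums the median with SR9009 was 0.01, with 52.8% of the 36 genes above 0 in place of 69.4%, and with quantile normalization it was 0.08, with 58.3% above 0. With the median of all genes centred, 1 gene was higher in the SR9009 arm, Psmd1.

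Within the vehicle arm, calls at 48 h came mostly from the cap, and the shares called in its parts were close. All 8 lid genes were above 0, with a median difference of 0.58 and a range of 0.29 to 0.92, and 6 of them had bounds apart: Psmd3, Psmd7, Psmd8, Psmd12, Psmd13 and Psmd14. Of the 6 ATPases 4 were higher, Psmc1, Psmc2, Psmc3 and Psmc5, and of the 3 other base subunits 2, Psmd1 and Psmd2. No difference between sub-complexes was tested. In the core 3 of the 16 genes had bounds apart, the general subunits Psma5, Psmb6 and Psmb7, against 12 of the 17 genes of the cap. Over all genes used 17.1% were higher in this comparison, so the share called in the core was near that of all genes used. Among the chaperones Psmd5 was higher. Relative to vehicle at 0 h the summed FPKM of the lid was 1.54 times at 48 h, that of the ATPases 1.38 times, that of the other base subunits 1.39 times, that of the alpha subunits 1.23 times and that of the beta subunits 1.23 times. At 4 h these ratios were 1.31, 1.33, 1.29, 1.33 and 1.26 times in the same arm, so the sub-complexes were closer together then. With SR9009 at 48 h they were 1.10 (lid), 1.03 (ATPases), 1.11 (other base), 1.08 (alpha) and 1.11 times (beta).

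**Figure D3:**
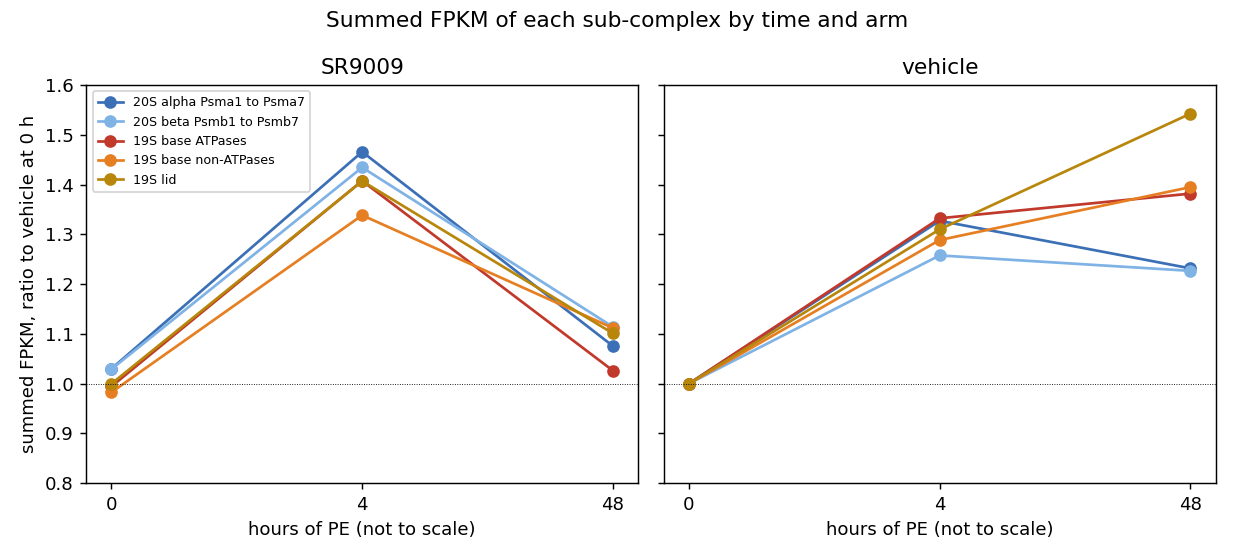
Summed FPKM of each sub-complex (20S alpha Psma1 to Psma7, 20S beta Psmb1 to Psmb7, 19S ATPases, 19S base non-ATPases and lid) as a ratio to vehicle at 0 h, at 0, 4 and 48 h of PE, with SR9009 on the left and vehicle on the right. At 48 h the lid is at 1.10 with SR9009 and at 1.54 with vehicle, while at 4 h it is at 1.41 and 1.31.

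The 3 widest differences at 48 h with vehicle were all lid genes. Psmd14, the metalloprotease of the lid that cleaves ubiquitin chains from substrates (chromosome 3, 47578449 to 47673330, rn6), had 47.8 (40.8 to 54.7), 71.4 (61.3 to 81.6) and 55.3 (47.4 to 63.3) FPKM at 0, 4 and 48 h with SR9009, and 47.9 (41.0 to 54.8), 66.7 (57.2 to 76.2) and 91.9 (78.2 to 106) FPKM with vehicle. The vehicle value at 48 h lay above every other group, with its lower bound above the upper bounds of all but SR9009 at 4 h. Its difference from 0 h was 0.92 (0.50 to 1.34) with vehicle and 0.21 (-0.20 to 0.62) with SR9009. Psmd12 differed by 0.91 (0.49 to 1.33) with vehicle and by 0.36 (-0.05 to 0.77) with SR9009.

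Psmd8, a structural lid subunit (chromosome 1, 88116811 to 88123643), had 90.2 (77.3 to 103), 114 (97.2 to 130) and 89.3 (76.5 to 102) FPKM at 0, 4 and 48 h with SR9009, and 86.8 (74.4 to 99.2), 99.4 (85.5 to 113) and 152 (130 to 175) FPKM with vehicle. Its difference at 48 h was 0.80 (0.38 to 1.22) with vehicle and -0.01 (-0.43 to 0.40) with SR9009. In vehicle cells its 4 h difference was 0.19 (-0.21 to 0.60), so most of the contrast lay between 4 and 48 h.

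**Figure D4:**
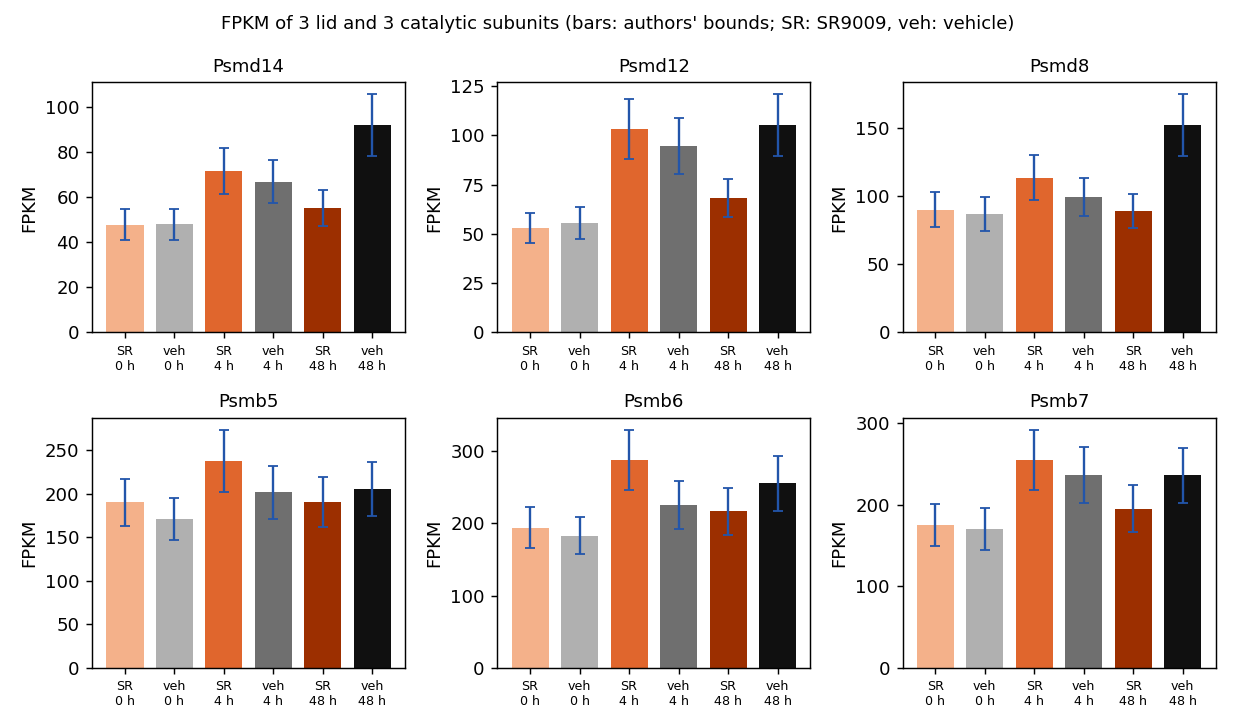
FPKM of the lid genes Psmd14, Psmd12 and Psmd8 (upper row) and of the catalytic genes Psmb5, Psmb6 and Psmb7 (lower row) in the 6 groups, with bars from 0 and error bars for the authors' confidence bounds. Psmd8 is at 89.3 FPKM in SR9009 and 152 FPKM in vehicle at 48 h, while Psmb5 is at 191 and 206 FPKM.

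At the other end of the 48 h comparison with vehicle stood Psma8 at -0.49 (-1.12 to 0.16), Psmb11 at -0.33 (-0.91 to 0.24) and Psmd9 at 0.02 (-0.37 to 0.42), all with overlapping bounds. With equal sums, 4 of the 16 genes kept bounds apart at 48 h with vehicle, Psmc1, Psmd8, Psmd12 and Psmd14, and with quantile normalization 7, these 4 with Psmc3, Psmd1 and Psmd5. The median difference was then 0.18 with equal sums and 0.27 with quantile normalization, against -0.19 and -0.01 over all genes used.

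The step from 4 to 48 h was compared within each arm. With SR9009 35 of 36 genes were lower at 48 h than at 4 h, all but Psma8, with a median difference of -0.37 against 0.03 over all genes used. With bounds apart 10 genes (27.8%) were lower, against 11.9% of all genes used, and 0 higher, against 14.6%. At 2-fold 0 were called, against 2.49% upward and 2% downward. The 10 were Psma1, Psma3, Psma5, Psma6, Psmb2, Psmc1, Psmc2, Psmc3, Psmc6 and Psmd12, with Psmd12 at -0.59 (-1.01 to -0.18) and Psma5 at -0.58 (-1.001 to -0.17). Psma5, an alpha subunit, had 96.7, 142 and 94.4 FPKM with SR9009, and 85.6, 117 and 125 FPKM with vehicle. With equal sums 6 genes were lower, and with quantile normalization also 6.

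With vehicle the median difference between 48 and 4 h was 0.04, with 21 of 36 genes above 0, against 0.01 over all genes used. With bounds apart 3 genes (8.33%) were higher, Psmd5, Psmd8 and Psmd14, against 14.9% of all genes used, and 0 were lower, against 12.2%. At 2-fold 0 were called, against 3.85% upward and 2.37% downward. The share called was thus below that of all genes used. The same 3 genes were called with equal sums, with quantile normalization and with the median of all genes centred. Equal sums and centring could hardly change a call here, because the FPKM sums were 699056 at 4 h and 710198 at 48 h and the median of all genes was 0.01. Psmd5 had 55.5 (47.8 to 63.3) FPKM at 48 h, against 34.5 (29.4 to 39.6) FPKM at 4 h, a difference of 0.67 (0.26 to 1.08).

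The design also sets SR9009 beside vehicle at each time, which asks what the agonist did before and during PE. Before PE the bounds of every proteasome gene overlapped between the arms. The median difference was 0.02, with 21 of 36 genes above 0, against -0.01 over all genes used, and it was -0.03 with quantile normalization. With bounds apart 0 genes were called, against 3.95% of all genes used upward and 5.9% downward, and at 2-fold 0, against 0.499% upward and 0.566% downward. The highest differences were those of Psmd10 at 0.31 (-0.50 to 1.16), Psma5 at 0.17 (-0.24 to 0.59) and Psma6 at 0.17 (-0.25 to 0.59). The lowest were those of Psma8 at -0.37 (-1.04 to 0.30), Psmb11 at -0.20 (-0.77 to 0.36) and Psmb3 at -0.17 (-0.59 to 0.25). Psma6, an alpha subunit, had 169, 258 and 175 FPKM at 0, 4 and 48 h with SR9009, and 150, 219 and 194 FPKM with vehicle. Psmb3 had 132, 207 and 161 FPKM with SR9009, and 149, 198 and 183 FPKM with vehicle.

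After PE for 48 h most proteasome genes had a lower value with SR9009 than with vehicle, though 28 of the 36 had overlapping bounds. Of the 36 genes 34 were below 0, with a median difference of -0.28 against -0.04 over all genes used. With bounds apart 8 genes (22.2%) were lower, against 17.3% of all genes used, and 0 higher, against 11.3%, so the share called was near that of all genes used. At 2-fold 0 were called, against 2.33% upward and 4.55% downward. The 8 were Psmd8 at -0.76 (-1.18 to -0.34), Psmd14 at -0.72 (-1.14 to -0.30), Psmd12 at -0.62 (-1.04 to -0.20), Psmd5 at -0.57 (-0.98 to -0.17), Psmc1 at -0.57 (-0.996 to -0.14), Psmc2 at -0.48 (-0.91 to -0.05), Psmd3 at -0.48 (-0.90 to -0.06) and Psmc3 at -0.46 (-0.85 to -0.07). Of these, 7 are cap genes and Psmd5 is a chaperone of the cap, and 0 of the 16 core genes had bounds apart. This comparison and the 48 h comparison within the vehicle arm share the vehicle group at 48 h, so a high value in it enters both.

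Psmd8 had 89.3 (76.5 to 102) FPKM with SR9009 at 48 h, against 152 (130 to 175) FPKM with vehicle. Psmd3, a scaffold subunit of the lid, had 57.4, 82.3 and 63.6 FPKM at 0, 4 and 48 h with SR9009, and 63.6, 77.4 and 88.9 FPKM with vehicle. Among the ATPases, Psmc2 had the highest level, with 97.3, 136 and 92.5 FPKM with SR9009 and 90.9, 122 and 130 FPKM with vehicle. Psmc3 had the lowest, with 56.3, 85.9 and 64.1 FPKM with SR9009 and 61.2, 81.6 and 88.4 FPKM with vehicle. The median difference was -0.53 for the 8 lid genes and -0.41 for the 6 ATPases. For the 3 other base subunits, of which 0 had bounds apart, it was -0.28. It was -0.21 for the general alpha subunits and -0.18 for the general beta subunits.

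The upper end at 48 h was held by Psma8 at 0.30 (-0.32 to 0.93), the beta subunit Psmb4 at 0.00 (-0.43 to 0.43) and Psmd9 at -0.03 (-0.42 to 0.37). Psmb4 had 239, 305 and 253 FPKM at 0, 4 and 48 h with SR9009, and 231, 265 and 252 FPKM with vehicle. It was the core subunit that differed least between the arms at 48 h. With equal sums 5 genes were lower with SR9009, and with quantile normalization also 5: Psmc1, Psmd5, Psmd8, Psmd12 and Psmd14 in both cases.

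The change of the PE response by SR9009 can be read as the 48 h difference with SR9009 minus that with vehicle. It was below 0 for 33 of 36 genes, the exceptions being Psma8 at 0.67 (-0.62 to 1.97), Psmd9 at 0.09 (-0.70 to 0.89) and Psmb11 at 0.01 (-1.13 to 1.15). The median was -0.31, against -0.03 over all genes used. Because 4 sets of bounds enter, the ranges are wide, and 0 genes had bounds apart, against 5.51% of all genes used upward and 7.68% downward, while at 2-fold 0 were called against 3.71% upward and 5.34% downward. The lowest were Psmd8 at -0.82 (-1.65 to 0.02), Psmd11 at -0.73 (-2.74 to 1.21) and Psmd14 at -0.72 (-1.55 to 0.12).

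**Figure D5:**
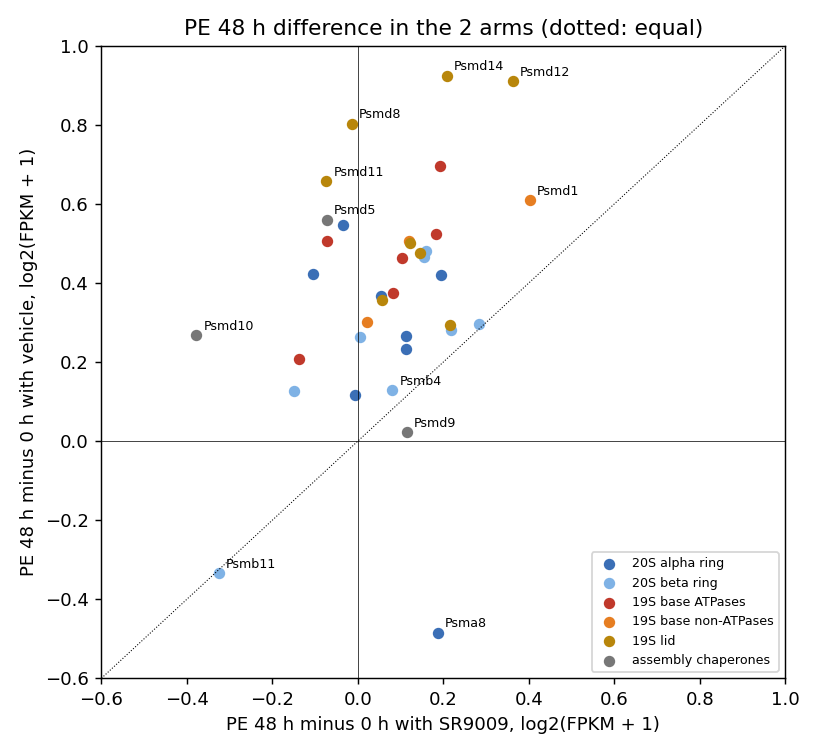
PE 48 h minus 0 h difference of log2(FPKM + 1) with SR9009 (horizontal) and with vehicle (vertical) for the 36 proteasome genes, coloured by sub-complex, with a dotted line where both are equal. Of the 36 points 33 lie above the line, with Psmd8 at -0.01 and 0.80, and Psma8, Psmb11 and Psmd9 lie below it or on it.

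Over all 6 groups, SR9009 with PE for 4 h was the highest group for 20 genes, among them 13 of the 14 general core subunits, and vehicle with PE for 48 h for 10 genes, all of the cap or its chaperone Psmd5. Vehicle with PE for 4 h was highest for 3 genes (Psma3, Psmc6 and Psmd6), vehicle at 0 h for Psma8 and Psmb11, and SR9009 at 0 h for Psmd10. The lowest group was one of the 0 h groups for 29 genes, 13 with SR9009 and 16 with vehicle, and SR9009 with PE for 48 h for 5. For 32 genes the values were above 0 h at 4 h in both arms and then lower at 48 h than at 4 h with SR9009. In most genes the bounds of the highest groups overlapped, so the order of neighbouring groups is not firm.

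Other genes of the ubiquitin and proteasome pathway were counted by list, 35 genes in all. Inducible immunoproteasome subunits replace the catalytic ones where antigens are processed. Psmb8 had 7.67, 5.24 and 6.22 FPKM at 0, 4 and 48 h with SR9009, and 8.19, 6.35 and 7.35 FPKM with vehicle. Psmb9 had 13.4, 9.20 and 9.26 FPKM with SR9009, and 11.2, 10.3 and 7.16 FPKM with vehicle. Psmb10 had 13.7, 22.4 and 12.6 FPKM with SR9009, and 15.1, 17.4 and 15.9 FPKM with vehicle, and of the 3 it alone had bounds apart, higher at 4 h than at 0 h (0.67, 0.13 to 1.23) and lower at 48 h than at 4 h (-0.79, -1.34 to -0.25) with SR9009. Their sum was 6.22%, 4.72% and 4.65% of that of Psmb5, Psmb6 and Psmb7 with SR9009, against 6.58%, 5.12% and 4.37% with vehicle.

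Activators open the core from its ends in place of the 19S cap. Psme1, the alpha subunit of the PA28 activator (chromosome 15, 34256071 to 34263156, rn6), had 274, 306 and 351 FPKM at 0, 4 and 48 h with SR9009, and 324, 455 and 172 FPKM with vehicle. It met the 2-fold rule with SR9009 against vehicle at 48 h, 1.02 (0.63 to 1.41), and at 48 h against 4 h with vehicle, -1.39 (-1.78 to -1.003). Its partner Psme2, 2.40 kb away, had 47.3, 55.3 and 45.5 FPKM with SR9009, and 39.5, 56.6 and 31.5 FPKM with vehicle, and was higher with SR9009 at 48 h by 0.52 (0.09 to 0.94). At 48 h both PA28 genes were thus higher with SR9009 than with vehicle, where the values of most general subunits were below those with vehicle. At 4 h Psme1 went the other way, lower with SR9009 than with vehicle at -0.57 with bounds apart, while the bounds of Psme2 overlapped. With vehicle Psme1 and Psme2 were higher at 4 h than at 0 h, by 0.49 (0.09 to 0.89) and 0.51 (0.11 to 0.91). With SR9009 the bounds of both overlapped in that step. Psme3, the nuclear PA28 form, was lower with SR9009 at 48 h, at -0.40 (-0.78 to -0.01). Psme4, the large activator PA200, had 94.0, 96.4 and 109 FPKM with SR9009, and 107, 99.7 and 99.3 FPKM with vehicle, with overlapping bounds throughout.

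Proteins of the 19S cap outside the symbol rule numbered 5 in the table. At 48 h against 0 h, 0 of these were higher with SR9009, against 9.49% of all genes used, and 4 with vehicle, against 17.1%. The exception was Shfm1, a small lid subunit, with an overlapping difference of -0.17 (-0.56 to 0.23) there, and it was lower at 48 h than at 4 h with vehicle, at -0.47 (-0.86 to -0.08). Usp14, a deubiquitinase bound to the cap, had 62.7, 91.0 and 68.7 FPKM at 0, 4 and 48 h with SR9009, and 62.3, 94.4 and 106 FPKM with vehicle. It was lower with SR9009 than with vehicle at 48 h, at -0.62 (-1.03 to -0.22). Uchl5, another cap deubiquitinase, had 10.7, 11.5 and 9.82 FPKM with SR9009, and 10.4, 10.1 and 17.2 FPKM with vehicle, and was lower with SR9009 at 48 h, at -0.75 (-1.36 to -0.17). The ubiquitin receptor Adrm1 and the thioredoxin-like Txnl1 were higher at 48 h with vehicle, by 0.52 (0.09 to 0.95) and 0.46 (0.04 to 0.89).

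Of the 4 assembly factors with a row, 3 had values to compare at 48 h against 0 h, and 0 of these were called in either arm, against 9.49% upward and 9.56% downward of all genes used with SR9009 and 17.1% and 14.7% with vehicle. From 4 to 48 h with SR9009 the core assembly chaperones Psmg1 and Psmg4 were lower, at -0.49 (-0.88 to -0.11) and -0.51 (-0.996 to -0.03), against 11.9% of all genes used. Pomp, the maturation factor of the core, was listed at 0 in 4 groups and at 0.130 and 0.153 FPKM in SR9009 with PE for 4 and 48 h, so it gives no usable value. Psmg3, Paaf1, Ube3c and Nfe2l1 had no row under these symbols, so their levels could not be read. Of 4 genes of transcriptional control, the NRF2 gene Nfe2l2 had 99.9, 88.4 and 74.6 FPKM at 0, 4 and 48 h with SR9009, and 88.0, 87.8 and 88.9 FPKM with vehicle, with overlapping bounds. Nfe2l3, at a low level, was lower at 48 h than at 4 h with vehicle, with 2.27 (1.71 to 2.84) against 3.95 (3.15 to 4.75) FPKM. It was the 1 gene of these 4 called lower in that comparison, against 12.2% of all genes used. Ddi2, the protease that activates NRF1, was lower with SR9009 than with vehicle at 0 h, at -0.32 (-0.53 to -0.08), and higher at 4 h than at 0 h with SR9009, by 0.46 (0.35 to 0.57). Its bounds in SR9009 at 0 h, 9.61 (9.51 to 9.72) FPKM, enter both calls and are unusually narrow, since the half-width of its bounds had a median of 13.4% over the groups.

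Of 14 genes for ubiquitin and for delivery of substrates, 0 were higher and 2 lower at 48 h than at 0 h with SR9009, against 9.49% and 9.56% of all genes used, and 3 were higher and 0 lower with vehicle, against 17.1% and 14.7%. With so few genes these counts are near those of all genes used. The shuttle factor Rad23b had 97.9, 102 and 70.3 FPKM at 0, 4 and 48 h with SR9009, and 80.8, 108 and 110 FPKM with vehicle. At 48 h 3 of the 14 were lower with SR9009 than with vehicle and 0 higher, against 17.3% and 11.3% of all genes used. This count is also near that of all genes used. The 3 were Nploc4 and Nsfl1c, cofactors of the segregase VCP, at -0.65 (-1.05 to -0.24) and -0.58 (-0.97 to -0.18), and Rad23b at -0.64 (-1.05 to -0.22). Vcp itself had overlapping bounds, with 267 (227 to 307) FPKM with SR9009 and 333 (283 to 383) FPKM with vehicle, and so did Ufd1l. Rps27a, a ubiquitin fused to a ribosomal protein, was higher with SR9009 at 0 h, by 0.53 (0.12 to 0.94), and lower at 48 h than at 0 h with SR9009, at -0.63 (-1.05 to -0.22).

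Some of the members cannot be counted cleanly. For 15 of them the RefSeq gene table names 39 pseudogenes or like copies in all, 10 of them of Psmb3, so reads could be shared between copies. Psma3 shares its locus with Psma3l, which the same table lists as a synonym of Psma3. Psma3 had 53.4, 74.9 and 49.6 FPKM at 0, 4 and 48 h with SR9009, and 51.9, 81.2 and 69.9 FPKM with vehicle, while Psma3l had 133, 204 and 136 FPKM with SR9009, and 127, 181 and 182 FPKM with vehicle. Psmd11, a lid subunit, was quantified over a locus of 610876 bases with 8 other symbols, and Psmd1 shares its locus with Htr2b. Psmd11 had 27.5, 41.1 and 26.1 FPKM with SR9009, and 24.6, 33.2 and 39.4 FPKM with vehicle, and its bounds overlapped in each comparison. The lowest and highest levels in the base outside the ATPases were those of Psmd4, a ubiquitin receptor, with 87.4, 117 and 88.8 FPKM with SR9009 and 87.3, 104 and 108 FPKM with vehicle, and of the scaffold Psmd2, with 101, 136 and 110 FPKM with SR9009 and 102, 126 and 145 FPKM with vehicle.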

How the data were processed

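RNA from 18 libraries in 6 groups of 3 was sequenced (stranded mRNA library kit, per the labels). The deposited table gives FPKM that the authors made per gene and group from the 3 libraries, with confidence bounds and a status, per the file headers. The steps included FastQC, Trim Galore, TopHat and Cuffdiff on the rat genome rn6, per the submitters' processing notes. The sources used here give no tool versions, no level for the bounds and no scaling between libraries, and depth is unknown. Groups come from the sample titles.

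Values of status HIDATA (31 values), values outside their own bounds (172) and listed zeros gave no difference, and 0 values of the proteasome genes were affected. Differences are of log2(FPKM + 1), over genes averaging 1 FPKM or more. The planned limma fit needs values per library and was not run, so a rule of size and bounds took its place. The rule was checked on simulated data, which cannot show how it performs here, because the level of the bounds is not given. Loci were read with the start counted from 0, because lengths then equal those of RefSeq for 2074 genes, against 277 otherwise, and are printed with the first base as 1. Motifs were searched on both strands of 250 bases upstream in RefSeq promoters (GRCr8).

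Members and lists were chosen with earlier results of these data known. Values in all groups are given for members that meet the 2-fold rule, the 3 highest and 3 lowest differences of 3 comparisons (PE 48 h vs 0 h with vehicle, SR9009 vs vehicle at 0 h and at PE 48 h), the catalytic subunits and the highest and lowest member of each sub-complex. Others are named for their calls, and Psma3, Psmc1, Psmd3 and Psma3l were given in full after their values were seen. The pathway genes Psme2, Usp14, Uchl5, Nfe2l2 and Rad23b were also given in full, although the planned rule did not name them. Alternatives were the pseudocount, the scaling, the filter, the size of a call, Psma3 summed with Psma3l, and leaving out the chaperones, the last 2 added after seeing the data. Python 3.11.15, pandas 2.3.3, numpy 2.4.6 and matplotlib 3.10.9 were used.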

Additional observations from a re-analysis of the deposited data

Results flagged for a closer look

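The difference of the PA28 alpha gene Psme1 between PE for 48 h and 0 h had opposite signs in the arms, with overlapping bounds with SR9009 and bounds apart with vehicle. It had 351 FPKM at 48 h and 274 FPKM at 0 h with SR9009, a difference of log2(FPKM + 1) of 0.35, and 172 FPKM at 48 h and 324 FPKM at 0 h with vehicle, a difference of -0.91. The difference with SR9009 minus that with vehicle was 1.26 (0.46 to 2.06, the widest range from the authors' bounds). The difference between the arms was not tested, because each group has a single pooled value.

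Of the 14 genes for ubiquitin and its delivery, 2 also differed between the arms at 48 h, in the other direction. Both had bounds apart, against 7.68% of all genes used downward and 5.51% upward. The shuttle factor gene Rad23b differed from 0 h by -0.47 with SR9009 and by 0.44 with vehicle, which is -0.91 (-1.73 to -0.09) with SR9009 minus vehicle. Rps27a had 585 FPKM at 48 h and 908 FPKM at 0 h with SR9009, and 777 FPKM at 48 h and 628 FPKM at 0 h with vehicle, which is -0.94 (-1.76 to -0.12). Neither difference between the arms was tested.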

How the results depend on the processing

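No paired analysis was possible because the table holds 1 pooled value per group, and leaving out a replicate was not run for the same reason. No median of the proteasome genes of at least 0.1 changed sign under any alternative. Of the recomputed counts and medians, 385 stayed close to the values reported and 38 moved. Some of the 385 could hardly move, because the minimum mean removed no row and the pseudocount matters little at the levels of most members. The median at PE 48 h vs 0 h with SR9009 was 0.01 with equal sums and 0.08 with quantile normalization, against 0.11 as reported, and that of SR9009 vs vehicle at 4 h was 0.17 and 0.18, also against 0.11. The counts that moved by over 1.5 times and the medians that moved by 0.1 or more did so with the scaling or the size rule, as follows, and the cause was not tested. With FPKM rescaled to equal sums, the count with bounds apart at PE 4 h vs 0 h with vehicle was 1 higher and 1 lower (median 0.16), at PE 48 h vs 0 h with vehicle 4 higher (0.18), at PE 4 h vs 0 h with SR9009 8 higher (0.34), at PE 48 h vs 4 h with SR9009 6 lower, for SR9009 vs vehicle at 4 h 1 higher, and for SR9009 vs vehicle at 48 h 5 lower (median -0.17), while the median of the 48 h interaction was -0.19. With quantile normalization the same counts were 1 higher (median 0.13), 7 higher (0.27), 9 higher (0.36), 6 lower, 1 higher and 5 lower, and the interaction medians were 0.23 at 4 h and -0.18 at 48 h. With each comparison centred on the median of all genes, 1 gene (Psmd12) was 2-fold higher at PE 4 h vs 0 h with SR9009, 1 gene was higher at PE 48 h vs 0 h with SR9009, and 1 was higher for SR9009 vs vehicle at 4 h. With a size of 1.5-fold in place of 2-fold, calls numbered 1 (PE 4 h vs 0 h, vehicle), 5 (PE 48 h vs 0 h, vehicle), 2 (PE 48 h vs 4 h, vehicle), 5 (PE 4 h vs 0 h, SR9009), 1 (PE 48 h vs 4 h, SR9009) and 3 (SR9009 vs vehicle, 48 h), and with no size required 11, 16, 3, 19, 10 and 8. Equal sums moved the median of all genes from -0.02 to -0.20 at PE 4 h vs 0 h with vehicle and from 0.01 to -0.19 at PE 48 h vs 0 h with vehicle; relative to that median the proteasome genes were at 0.35 and 0.37, against 0.37 and 0.39 as reported, and with quantile normalization at 0.13 and 0.28. Among single genes named, 301 values stayed on their side of the bounds, 25 lost bounds apart and 4 gained them. The width of the authors' bounds limits what can be called, since each bound lies a median of 14.7% from the value of a member.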
